A study of Mus musculus with 6 samples.

Results

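Open chromatin and Tfcp2l1 binding were described around 9 genes of the Hedgehog pathway, namely Gli1, Gli2, Gli3, Smo, Ptch1, Sufu, Hhip, Boc and Gas1. They were chosen by name, out of 21938 protein-coding genes, and every ATAC-seq peak in a gene or within 20 kb of it and every ChIP-seq peak within 200 kb of its start was taken. The 4 ATAC-seq libraries came from mouse embryonic fibroblasts (MEFs) of C57BL/6J embryos at mid-gestation, with no transgene named in the labels. Under 3% oxygen, 1 library was from cells that had become immortalized (Hyp-Imm) and 1 from proliferating cells at passage 1 (Hyp-Pro). Under 20% oxygen, 1 was from cells that had become senescent (Norm-Sen) and 1 from proliferating cells at passage 1 (Norm-Pro). The 2 ChIP-seq libraries, made with an antibody against the transcription factor Tfcp2l1, came from immortalized MEFs in 3% oxygen and senescent MEFs in 20% oxygen. Each condition had 1 library, so there is no replicate error and no difference between conditions was tested.

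Hedgehog ligands act by binding Patched, which otherwise holds the membrane protein Smoothened inactive. Active Smoothened releases the Gli transcription factors from Sufu, and the Gli proteins then switch on or repress their targets, which include Gli1, Ptch1 and Hhip themselves. Boc and Gas1 are co-receptors that help the ligand meet Patched, and Hhip binds the ligand away from it. In fibroblasts and other mesenchymal cells the pathway is best known as the receiving side of signals sent by epithelia and nerve tissue.

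Each of the 4 ATAC-seq files bears a name that states a different condition from the label of its sample, and the libraries are called here by their labels. By its file name Hyp-Imm would be Norm-Sen, Hyp-Pro would be Norm-Pro, Norm-Sen would be Hyp-Pro and Norm-Pro would be Hyp-Imm, so the oxygen condition of every library would be exchanged. The 2 libraries labelled 20% oxygen and the 2 labelled 3% oxygen also carry different suffixes in their peak names, whose meaning no source used here gives, so oxygen and that suffix cannot be told apart. The lists held 37770 peaks for Hyp-Imm, 47523 for Hyp-Pro, 61408 for Norm-Sen and 69122 for Norm-Pro, and the background derived from the fold values of Hyp-Imm was 25.2% of that of the deepest library, Norm-Sen. Promoters of fibroblast marker genes had a peak for 4 of 10 genes in Hyp-Imm, 6 in Hyp-Pro, 7 in Norm-Sen and 6 in Norm-Pro. Of all protein-coding genes, 35.5% had one in Hyp-Imm, 49.5% in Hyp-Pro, 53.0% in Norm-Sen and 54.8% in Norm-Pro. The fibroblast counts lay only a little above this background, and cell identity was not tested. The promoters of Col1a2, Fn1, Vim and Twist1 had a peak in all 4 libraries, and those of Col3a1 and Prrx1 had none in any. Of 4 markers each of epithelial, endothelial, blood, skeletal muscle and neural cells, 0 to 2 had a promoter peak in a library. Among them the endothelial marker Kdr had one in all 4 libraries and the blood marker Spi1 in each but Hyp-Pro.

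Every one of the 9 genes had at least 1 ATAC-seq peak in its window in each library. The share of all protein-coding genes with such a peak was 73.4% in Hyp-Imm, 81.1% in Hyp-Pro, 85.0% in Norm-Sen and 86.0% in Norm-Pro. The windows ran from 42961 bp for Gas1 to 306792 bp for Gli3, and these shares were not matched for window length. Near the 9 genes lay 33 peaks in Hyp-Imm, 35 in Hyp-Pro, 43 in Norm-Sen and 44 in Norm-Pro, in the same order as the lengths of the lists. Merging overlapping or touching peaks gave 112 regions, of 170532 in the whole pool. Their density over the windows was 9.25 regions per 100 kb, against 6.25 over the genome, and the median per gene was 10.4, against 8.85 for all protein-coding genes. By place, 48 of the 112 regions lay in introns, 21 at promoters, 7 in coding exons, 2 in untranslated exons and 34 in the flanks, which were 13 upstream and 21 downstream. The largest genes held the most regions, 26 for Gli3 and 16 for Gli2, and Gas1 the fewest, 5.

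**Figure D1:**
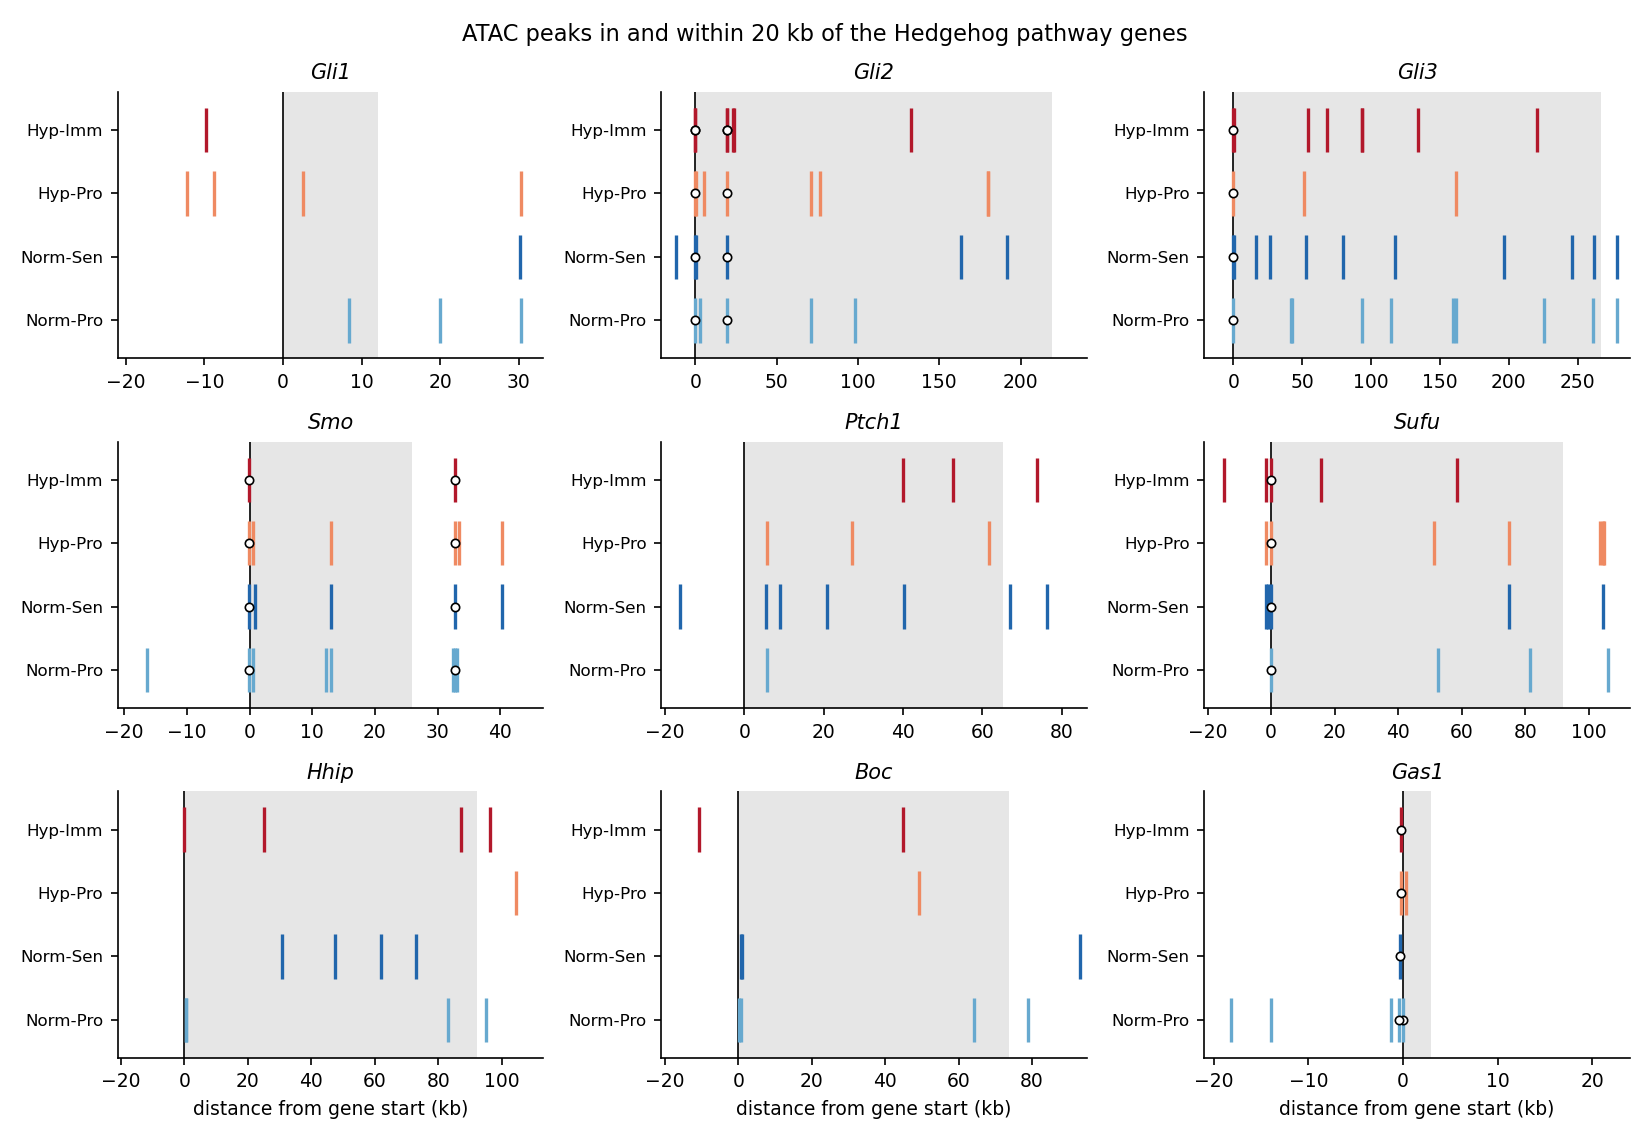
ATAC-seq peaks in and within 20 kb of the 9 genes, by distance from the start of the gene record in kb, with transcription running to the right; the grey band is the gene, each tick the centre of a peak in 1 library, and open circles mark peaks of regions found in all 4 libraries. Gli2, Gli3, Smo, Sufu and Gas1 have circles at their start, while Gli1, Ptch1, Hhip and Boc have none.

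A region found in all 4 libraries was rare, 7 of 112 (6.25%, 95% exact interval 2.55 to 12.5, counting error only), against 3.09% of the pool, and 91 (81.3%) lay in 1 library alone, against 85.6% of the pool. Of the 7 regions, 5 were the promoters of Gli2, Gli3, Smo, Sufu and Gas1, 1 lay in an intron of Gli2, and 1 lay in the flank of Smo at the promoter of its neighbour Ahcyl2. Of the 112 regions, 14 lay at the promoter of another gene, a share not counted in the pool. Another count of 14 had at least 50% of their bases soft-masked as repeats. The regions off repeats by this rule were 98 of 112, against 128447 of 170337 in the pool on chromosomes 1 to 19, X and Y.

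A promoter peak, within 1 kb of any annotated transcript start, was present for 6 of the 9 genes in Hyp-Imm, 7 in Hyp-Pro, 7 in Norm-Sen and 7 in Norm-Pro. The same share of all protein-coding genes was 35.5% in Hyp-Imm, 49.5% in Hyp-Pro, 53.0% in Norm-Sen and 54.8% in Norm-Pro. A promoter peak in all 4 libraries was found for 5 of the 9 genes, against 26.8% of all protein-coding genes. With peaks of a −log10 q of at least 5 alone, the count was 2 in Hyp-Imm (Smo and Sufu), 5 in Hyp-Pro, 3 in Norm-Sen and 4 in Norm-Pro. Only Sufu then kept one in all 4 libraries. Of the whole lists 11.04% of peaks passed in Hyp-Imm, 24.7% in Hyp-Pro, 22.1% in Norm-Sen and 19.8% in Norm-Pro. The share of all protein-coding genes at this threshold was not counted, so these counts have no background beside them. The other 4 genes differed between libraries. Boc had a promoter peak in both libraries labelled 20% oxygen, Hhip in Hyp-Imm and Norm-Pro, Ptch1 in Hyp-Pro and Norm-Sen, and Gli1 in Hyp-Pro. With lists cut to the length of the shortest, Boc kept its promoter peak in Norm-Sen, Hhip in Hyp-Imm and Ptch1 in Hyp-Pro, and Gli1 had none.

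**Figure D2:**
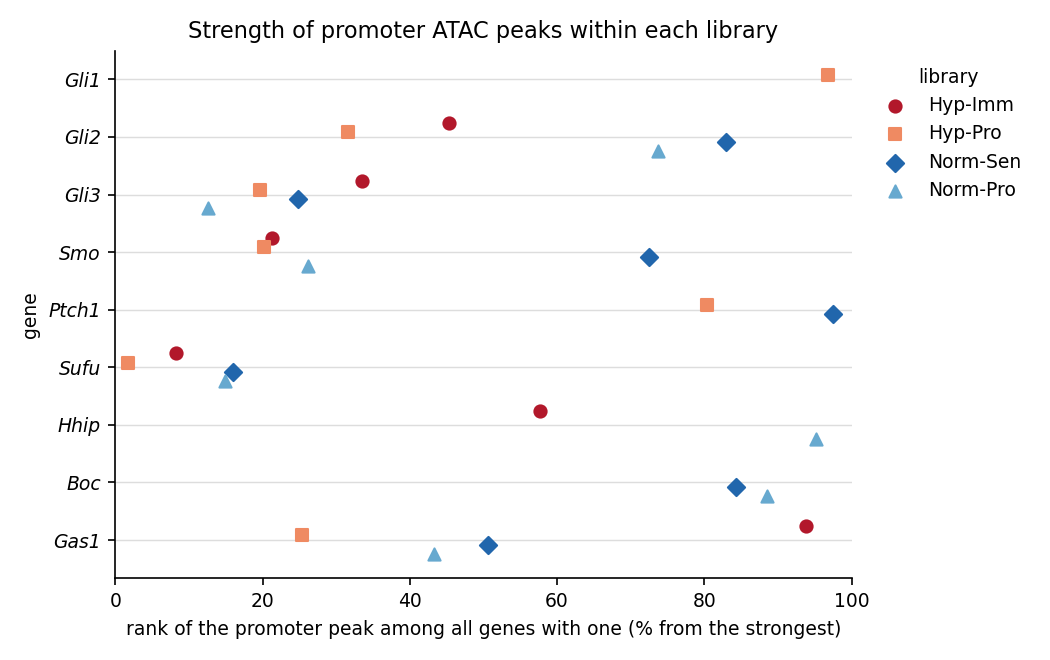
Rank of the strongest promoter peak of each gene among all genes with a promoter peak in the same library, as a percentage from the strongest (0) to the weakest (100), with 1 marker per library where a peak was called. Sufu and Gli3 lie within the strongest 33.5% in every library, while Gli2 lies at 31.5% in Hyp-Pro and 45.4% in Hyp-Imm, and at 83.0% in Norm-Sen and 73.7% in Norm-Pro.

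Ptch1, the receptor of the Hedgehog ligands and itself a target of the pathway (chr13:63508328-63573598, minus strand, GRCm38), had no peak within 1 kb of either of its RefSeq starts in any library. The nearest peak to the start at position 63565735 lay 32122 bp away in Hyp-Imm, 2173 bp in Hyp-Pro, 1031 bp in Norm-Sen and 2111 bp in Norm-Pro. Its promoter peaks by the rule used were at annotated starts inside the gene record, with a fold enrichment over local background of 4.71 and a −log10 q of 3.79 in Hyp-Pro, and 3.16 and 2.52 in Norm-Sen. Counted from the strongest, they stood at 80.4% of the promoter ranking in Hyp-Pro and 97.5% in Norm-Sen.

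The leading element of Ptch1 was an intronic region at chr13:63567846-63568162, upstream of the start at position 63565735. Its peak had a fold of 5.53 and a −log10 q of 7.54 in Hyp-Pro, 3.80 and 4.23 in Norm-Sen, and 5.32 and 7.96 in Norm-Pro. It ranked within the top 9.22% of the list of Hyp-Pro, 34.6% of Norm-Sen and 7.32% of Norm-Pro, and no peak was called there in Hyp-Imm. GENCODE places the start of the non-coding transcript A930032L01Rik, on the same strand, inside the region. The central 300 bases (chr13:63567855-63568154, minus strand) are printed because this is the Ptch1 region found in the most libraries. They are 70.3% G and C, and capitals mark the letters ACGTG or GCGTG on either strand, the core of the hypoxia response element.
Ptch1 intron: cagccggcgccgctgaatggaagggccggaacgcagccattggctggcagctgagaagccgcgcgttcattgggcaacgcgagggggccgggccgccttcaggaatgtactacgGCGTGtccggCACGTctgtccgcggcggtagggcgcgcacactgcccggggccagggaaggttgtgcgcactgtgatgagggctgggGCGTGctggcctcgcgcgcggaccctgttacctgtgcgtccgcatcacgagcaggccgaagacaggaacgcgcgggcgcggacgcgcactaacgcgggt

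Of the 11 regions of Ptch1, 3 were present in Hyp-Imm, 3 in Hyp-Pro, 7 in Norm-Sen and 1 in Norm-Pro. In Hyp-Imm 2 peaks tied as the strongest, each with a fold of 4.83 and a −log10 q of 2.89, 1 in a coding exon (chr13:63533477-63533613) and 1 downstream of the gene on a repeat. In Norm-Sen the strongest was an upstream peak found in no other library, at chr13:63589842-63589970, with a fold of 5.57 and a −log10 q of 6.40. No region of Ptch1 was shared between Hyp-Imm and either passage 1 library.

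Hhip, which encodes a membrane protein that binds and sequesters the ligands (chr8:79965851-80058006, minus strand), had 13 regions, each in 1 library alone. By library, 4 were in Hyp-Imm, 1 in Hyp-Pro, 4 in Norm-Sen and 4 in Norm-Pro. Its promoter peak in Hyp-Imm had a fold of 5.42 and a −log10 q of 3.76, and stood at 57.7% of the promoter ranking. The promoter peak in Norm-Pro was weaker for its list, with a fold of 3.901, a −log10 q of 2.62 and a rank at 95.2%. The Hhip peak of the best place within its own list was an intronic one found in Norm-Sen alone, at chr8:80027321-80027433, with a fold of 5.42 and a −log10 q of 5.56, within the top 17.7% of that list. The promoter peak of Hyp-Imm (chr8:80058057-80058163, minus strand) is printed because it held the only exact cAMP response element, TGACGTCA, among the 112 regions, marked in capitals; 0.397% of 200 bp windows at the centres of all pool regions held these letters.
Hhip promoter, Hyp-Imm: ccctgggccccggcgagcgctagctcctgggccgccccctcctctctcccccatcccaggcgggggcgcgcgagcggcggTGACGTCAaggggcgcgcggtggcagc

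Boc, a ligand-binding co-receptor of the immunoglobulin superfamily (chr16:44485049-44558897, minus strand), had 8 regions. Its promoter peaks had a fold of 3.95 and a −log10 q of 3.43 in Norm-Sen, and 3.85 and 3.098 in Norm-Pro, and stood low among promoters, at 84.4% in Norm-Sen and 88.5% in Norm-Pro. No promoter peak was called in Hyp-Imm, where the nearest peak to the RefSeq start lay 10563 bp away, or in Hyp-Pro, where it lay 49225 bp away.

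In Hyp-Imm the strongest Boc peak lay upstream of the gene at chr16:44569433-44569577, with a fold of 8.39, a −log10 q of 8.62 and a place within the top 2.08% of its list. The best Boc peak of the other libraries stood at 59.6% in Hyp-Pro, 56.4% in Norm-Sen and 66.2% in Norm-Pro. All of its bases were soft-masked, and 54.6% of its 49-base words occurred once in the genome, the most frequent 8851 times. It is printed on the plus strand to show the run of repeated CT that fills its right side, and no motif searched was in it.
Boc upstream, Hyp-Imm: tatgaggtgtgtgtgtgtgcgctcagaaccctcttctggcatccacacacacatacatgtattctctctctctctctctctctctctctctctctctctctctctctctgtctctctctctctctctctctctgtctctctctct

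Gas1, a lipid-anchored co-receptor (chr13:60174405-60177365, minus strand), had 5 regions and 1 that all libraries shared, at chr13:60177198-60177833 over its start. The strongest peak there had a fold of 4.11 and a −log10 q of 2.26 in Hyp-Imm, 6.37 and 8.58 in Hyp-Pro, 4.57 and 5.90 in Norm-Sen, and 5.03 and 7.11 in Norm-Pro. Among the promoters of its own library it stood at 93.8% in Hyp-Imm, 25.4% in Hyp-Pro, 50.7% in Norm-Sen and 43.3% in Norm-Pro. In Hyp-Imm, where it was weakest for its list, it was also the sole peak in the Gas1 window. Norm-Pro alone had peaks further upstream, 3 in all, up to 18094 bp from the start.

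Smo, the membrane protein that carries the signal across the membrane (chr6:29735503-29761365, plus strand), had 11 regions, 2 of them in all libraries. Its promoter peak had a fold of 6.57 and a −log10 q of 5.99 in Hyp-Imm, 7.25 and 9.56 in Hyp-Pro, 4.15 and 4.16 in Norm-Sen, and 6.43 and 9.55 in Norm-Pro. It stood within the strongest 21.3% of promoters in Hyp-Imm, 20.2% in Hyp-Pro and 26.2% in Norm-Pro, but at 72.5% in Norm-Sen. The other shared region lay downstream, over the start of Ahcyl2 (chr6:29768200-29768469), which encodes a protein related to adenosylhomocysteinase. There the fold was 11.8 and the −log10 q 17.3 in Hyp-Imm, and the peak stood within the top 0.259% of the list of Hyp-Imm, 8.29% of Hyp-Pro, 4.36% of Norm-Sen and 2.40% of Norm-Pro. It ranked above the Smo promoter in each library but Hyp-Pro. In all, the Smo window held 2 peaks in Hyp-Imm, 6 in Hyp-Pro, 5 in Norm-Sen and 8 in Norm-Pro.

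Sufu, the cytoplasmic inhibitor that binds the Gli proteins (chr19:46396896-46488804, plus strand), had the promoter peak of the lowest q among the 9 genes in Hyp-Imm, Hyp-Pro and Norm-Sen, and was next to Gli3 in Norm-Pro. At the region chr19:46396694-46397088 the fold was 7.52 and the −log10 q 8.60 in Hyp-Imm, 8.45 and 19.3 in Hyp-Pro, 5.99 and 11.3 in Norm-Sen, and 6.33 and 12.0 in Norm-Pro. Among the promoters of its library it stood at 8.21% in Hyp-Imm, 1.76% in Hyp-Pro, 15.9% in Norm-Sen and 14.9% in Norm-Pro. The start of Actr1a, which encodes an actin-related protein of the dynactin complex, lies 946 bp from this region.

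A second strong region in the Sufu window, at chr19:46395097-46395327 by the promoter of Actr1a, was present in every library but Norm-Pro. Its fold was 8.93 and its −log10 q 11.9 in Hyp-Imm, 6.13 and 9.99 in Hyp-Pro, and 6.78 and 14.1 in Norm-Sen. It was the top Sufu peak of Hyp-Imm and of Norm-Sen, with rank 282 in Hyp-Imm and 1032 in Norm-Sen. Inside the gene, an intronic peak at chr19:46449500-46449617 was found in Norm-Pro alone with a fold of 5.04 and a −log10 q of 6.21. Downstream, a peak at the start of Trim8 (chr19:46501690-46501825) was found in Hyp-Pro alone with a fold of 4.31 and a −log10 q of 6.13.

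Gli1, the activator whose own transcription is the usual readout of the pathway (chr10:127329882-127341974, minus strand), had 7 regions, of which 3 lay at promoters of other genes. The nearest peak to its RefSeq start lay 10165 bp away in Hyp-Imm, 2072 bp in Hyp-Pro, 29691 bp in Norm-Sen and 7877 bp in Norm-Pro. The Hyp-Pro peak that counted as a promoter was at a start inside the gene (chr10:127339372-127339507), with a fold of 3.58, a −log10 q of 2.54 and a promoter rank at 96.8%. The strongest peak of the window in 3 libraries was the promoter of Mars, a gene for methionyl-tRNA synthetase, with a −log10 q of 7.40 in Hyp-Pro, 5.07 in Norm-Sen and 5.47 in Norm-Pro. No peak was called there in Hyp-Imm, whose sole peak in the window (chr10:127351744-127351878, −log10 q 2.38) lay upstream in Inhbe. A further peak at the promoter of Inhbe, chr10:127354097-127354242, was found in Hyp-Pro alone with a fold of 5.10 and a −log10 q of 5.32.

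Gli2, the main activator of the family (chr1:118834132-119053619, minus strand), had 16 regions, 2 of them in all libraries. Its promoter region (chr1:119053614-119053955) had peaks of a fold of 5.43 and a −log10 q of 4.29 in Hyp-Imm, 5.83 and 7.71 in Hyp-Pro, 3.62 and 3.52 in Norm-Sen, and 4.04 and 4.24 in Norm-Pro. The intronic region at chr1:119033912-119034250, 19538 bp into the gene, had a fold of 5.58 and a −log10 q of 4.48 in Hyp-Imm, 5.42 and 5.50 in Hyp-Pro, 3.82 and 3.88 in Norm-Sen, and 3.62 and 3.00 in Norm-Pro. Both regions stood higher in the lists of Hyp-Imm and Hyp-Pro, the intron at 17.2% and 20.6% from the top, than in those of Norm-Sen at 46.7% and Norm-Pro at 69.2%. By the file names these would be the libraries of 20% oxygen and the order would point the other way. Such positions within a list depend on the depth of the library, and the difference has no replicate check.

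In Hyp-Pro the strongest Gli2 peak lay in an intron at chr1:118976750-118976928, where no other library had a peak, with a fold of 6.44, a −log10 q of 9.81 and a place within the top 4.69% of the list. This peak and the central 300 bases of the shared intronic region are printed on the minus strand, as the 2 distal Gli2 regions that stood out. Capitals mark ACGTG or GCGTG on either strand, of which each had 1.
Gli2 intron, Hyp-Pro (chr1:118976750-118976928): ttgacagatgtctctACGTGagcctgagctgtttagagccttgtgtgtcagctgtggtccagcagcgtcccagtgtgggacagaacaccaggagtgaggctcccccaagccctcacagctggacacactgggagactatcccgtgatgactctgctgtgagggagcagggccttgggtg
Gli2 intron, all libraries (chr1:119033932-119034231): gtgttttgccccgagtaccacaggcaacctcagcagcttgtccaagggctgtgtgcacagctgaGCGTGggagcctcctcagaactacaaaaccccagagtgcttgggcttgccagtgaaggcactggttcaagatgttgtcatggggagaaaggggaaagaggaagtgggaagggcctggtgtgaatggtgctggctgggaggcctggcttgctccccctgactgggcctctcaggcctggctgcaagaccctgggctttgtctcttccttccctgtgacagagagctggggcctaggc

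The gene downstream of Gli2 is Tfcp2l1, the factor targeted in the ChIP-seq. The 148963 bp between the 2 genes held 3 regions, 2 of Norm-Pro and 1 of Norm-Sen, or 2.01 per 100 kb. The promoter of Tfcp2l1 had a peak in Hyp-Pro, Norm-Sen and Norm-Pro, and none was called in Hyp-Imm. Of all protein-coding genes 12.1% likewise lacked a promoter peak in Hyp-Imm alone, the library with the shortest list. By its file name that library would be Norm-Sen.

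Gli3, which in the absence of ligand is processed to the main repressor of the family (chr13:15463235-15730026, plus strand), had 26 regions, 22 of them in 1 library. Its promoter region (chr13:15462905-15463453) had a fold of 5.49 and a −log10 q of 3.94 in Hyp-Imm, 6.82 and 9.67 in Hyp-Pro, 6.32 and 9.32 in Norm-Sen, and 7.55 and 12.6 in Norm-Pro. In Hyp-Imm a second promoter peak at chr13:15463942-15464047 was the stronger, with a fold of 6.11 and a −log10 q of 4.91. Inside the gene, an intronic region at chr13:15624834-15625042 reached a fold of 8.17 and a −log10 q of 10.1 in Hyp-Pro, its strongest Gli3 peak, and 4.58 and 3.46 in Norm-Pro. A region 278695 bp from the start, downstream of the gene, was shared by Norm-Sen (−log10 q 7.26) and Norm-Pro (4.69). Of its regions, 8 were present in Hyp-Imm, 3 in Hyp-Pro, 11 in Norm-Sen and 10 in Norm-Pro, and the cause of the difference was not tested.

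The promoters with a peak in all 4 libraries are printed as the 150 bases before the start that lies furthest upstream in GENCODE or RefSeq, on the strand of the gene. RefSeq promoter entries were found for 7 of the 9 genes. Capitals mark ACGTG or GCGTG on either strand, TGGGTGGTC (the GLI consensus), TGANTCA (AP-1) and TGACGTCA, of which Sufu had 2 GCGTG on the reverse strand and the other 4 had none in these bases. The promoters of Gli3 and Gas1 overlap exons of non-coding transcripts.
Gli2 promoter (chr1:119053620-119053769): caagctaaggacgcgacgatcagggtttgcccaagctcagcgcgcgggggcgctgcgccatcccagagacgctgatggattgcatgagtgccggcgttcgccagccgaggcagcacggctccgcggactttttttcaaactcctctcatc
Gli3 promoter (chr13:15463085-15463234): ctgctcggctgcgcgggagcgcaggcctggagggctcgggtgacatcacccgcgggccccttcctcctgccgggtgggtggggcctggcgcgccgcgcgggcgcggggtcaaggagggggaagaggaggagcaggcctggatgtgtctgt
Smo promoter (chr6:29735347-29735496): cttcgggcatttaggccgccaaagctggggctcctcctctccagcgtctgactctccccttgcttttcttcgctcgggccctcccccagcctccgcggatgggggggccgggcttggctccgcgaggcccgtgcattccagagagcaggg
Sufu promoter (chr19:46396746-46396895): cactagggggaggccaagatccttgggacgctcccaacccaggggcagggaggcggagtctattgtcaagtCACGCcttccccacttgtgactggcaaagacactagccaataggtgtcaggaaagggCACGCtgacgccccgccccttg
Gas1 promoter (chr13:60177536-60177685): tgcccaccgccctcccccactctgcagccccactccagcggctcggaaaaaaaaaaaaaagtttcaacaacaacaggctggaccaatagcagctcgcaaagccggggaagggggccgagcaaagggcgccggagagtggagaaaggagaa

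Regions of the 9 genes found in 1 library of a pair followed the lengths of the lists. Between immortalized and senescent MEFs, 22 regions were in Hyp-Imm and not Norm-Sen, 33 in Norm-Sen and not Hyp-Imm, and 9 in both, where 17.3% and 30.8% of the pool were in the first and the second of these classes. Of the unshared regions 40.0% (27.0 to 54.1) were thus those of Hyp-Imm, against 35.9% in the pool. Taking only as many of the strongest peaks from each list as the shortest list held turned the counts round, with 23 in Hyp-Imm alone and 15 in Norm-Sen alone, or 60.5% (43.4 to 76.0) against 49.99% in the pool. Grouping by file name also turned them round, with 35 in the library so named Hyp-Imm and 23 in that named Norm-Sen, or 60.3% against 67.4% in the pool.

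Within 3% oxygen, 23 regions were in Hyp-Imm and not Hyp-Pro (17.5% of the pool) and 27 in Hyp-Pro and not Hyp-Imm (22.9% of the pool). Between the passage 1 libraries, 22 were in Hyp-Pro and not Norm-Pro (19.6% of the pool) and 30 in Norm-Pro and not Hyp-Pro (32.4% of the pool). With lists cut to equal length these counts became 23 in Hyp-Imm and 21 in Hyp-Pro within 3% oxygen, and 19 in Hyp-Pro and 16 in Norm-Pro between the passage 1 libraries. Within 20% oxygen, 30 were in Norm-Sen and not Norm-Pro (26.8% of the pool) and 31 in Norm-Pro and not Norm-Sen (31.3% of the pool). With the lists as deposited and with lists of equal length, the interval around the share near the 9 genes held the share of the pool in each pair, so no departure from the pool was detectable there.

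**Figure D3:**
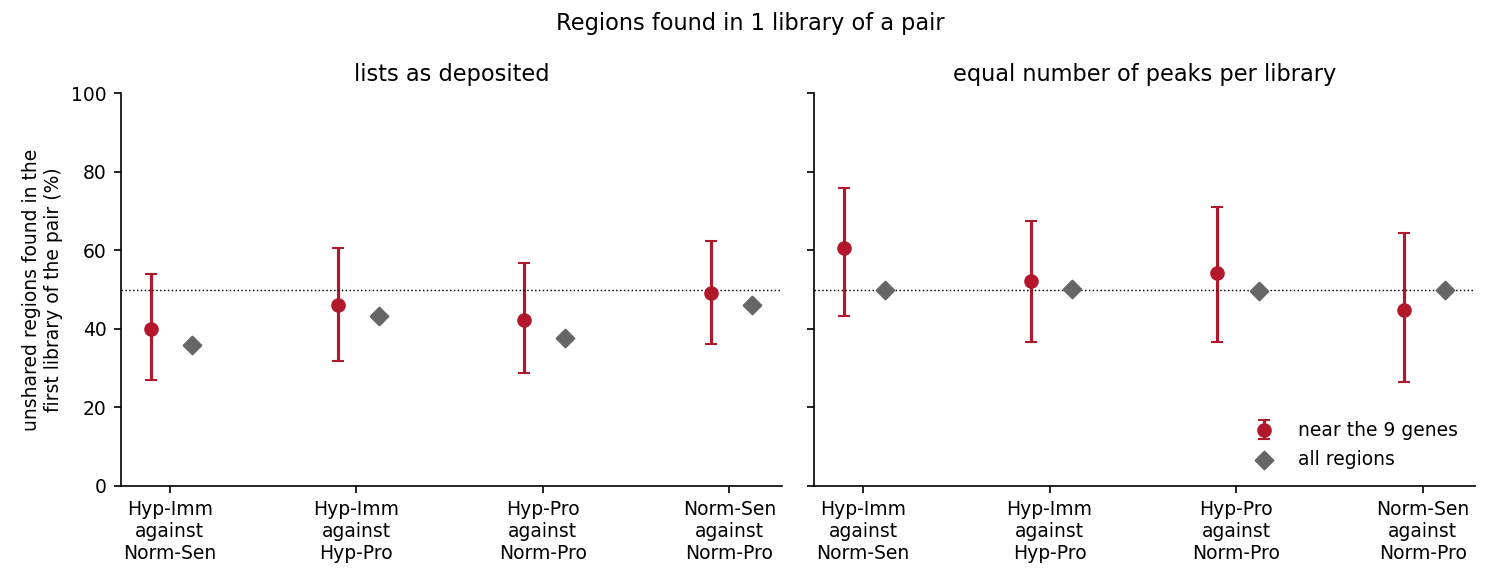
Share of the regions found in 1 library of a pair that belonged to the library named first, in percent, near the 9 genes (circles, with 95% exact binomial intervals for counting error) and in the whole pool (diamonds), with the lists as deposited and with lists of equal length. The value for Hyp-Imm against Norm-Sen lies at 40.0% with the lists as deposited and at 60.5% with lists of equal length.

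The shares of strong peaks differed between libraries. Near the 9 genes, 5 of 33 peaks had a −log10 q of at least 5 in Hyp-Imm (15.2%), 16 of 35 in Hyp-Pro (45.7%), 9 of 43 in Norm-Sen (20.9%) and 9 of 44 in Norm-Pro (20.5%). In the whole lists these shares were 11.04% in Hyp-Imm, 24.7% in Hyp-Pro, 22.1% in Norm-Sen and 19.8% in Norm-Pro. At this threshold 9 regions were in Hyp-Pro and not Norm-Pro and 1 in Norm-Pro and not Hyp-Pro, the reverse of the order over all peaks. Near the 9 genes 9 of these 10 regions were thus of Hyp-Pro (interval of the share 55.5% to 99.7%), against 43.2% in the pool. Several of the 9 had a weaker peak in Norm-Pro, with a −log10 q of 3.00 to 4.24. These were the promoter and shared intron of Gli2, the Gli3 intron and a Smo promoter region at chr6:29735956-29736185. Others lay at the promoters of Inhbe, Actr1a and Trim8 or in Ahcyl2. The last was the Gli2 intron at chr1:118976750-118976928, with a −log10 q of 9.81 in Hyp-Pro and no peak in Norm-Pro. This pair and threshold stood out among several looked at, and regions are not replicates, so the interval is no test. In the other pairs at this threshold the interval held the share of the pool. The share of Hyp-Imm against Norm-Sen was 25.0%, against 15.2% in the pool, that of Hyp-Imm against Hyp-Pro was 7.69%, against 17.8%, and that of Norm-Sen against Norm-Pro was 57.1%, against 49.6%.

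In Hyp-Imm 2 of 612 peaks lay within 200 kb of the start of a member, both in an intron of Smo, so that 1 of the 9 genes had a peak, against 11.8% of all protein-coding genes. In Norm-Sen 1 of 393 peaks did, near Boc, against 8.13% of all protein-coding genes. With 1 gene of 9 in each list, the count was near that background. None was in the other list or on a tRNA gene, and none held the Tfcp2l1 consensus with up to 2 mismatches, which 4.70% of the Hyp-Imm peaks and 8.36% of the Norm-Sen peaks held. The other 7 genes had their nearest ChIP-seq peak 613.0 kb away or further in Hyp-Imm and 848.1 kb or further in Norm-Sen.

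Both Smo peaks lay on a repeat. The stronger, at chr6:29748253-29748534, had a fold of 10.96, a −log10 q of 15.96 and rank 77, and the other, at chr6:29747864-29748066, a fold of 7.09, a −log10 q of 6.56 and rank 228. Of the bases of the stronger peak 98.6% were soft-masked, and 74.4% of its 49-base words occurred once in the genome. The other was soft-masked throughout, and 28.4% of its words occurred once. An ATAC-seq peak overlapped the stronger one in Hyp-Pro (−log10 q 3.04), Norm-Sen (4.02) and Norm-Pro (4.68). None was called there in Hyp-Imm, by its label the condition of the ChIP-seq library and the shortest list. By the file names the immortalized ATAC-seq library would be the one labelled Norm-Pro, which had a peak there. The sequence of the stronger peak is printed on the plus strand, with the part inside that ATAC-seq region in capitals, to show the short words of which the repeat is built.
Smo intron, ChIP: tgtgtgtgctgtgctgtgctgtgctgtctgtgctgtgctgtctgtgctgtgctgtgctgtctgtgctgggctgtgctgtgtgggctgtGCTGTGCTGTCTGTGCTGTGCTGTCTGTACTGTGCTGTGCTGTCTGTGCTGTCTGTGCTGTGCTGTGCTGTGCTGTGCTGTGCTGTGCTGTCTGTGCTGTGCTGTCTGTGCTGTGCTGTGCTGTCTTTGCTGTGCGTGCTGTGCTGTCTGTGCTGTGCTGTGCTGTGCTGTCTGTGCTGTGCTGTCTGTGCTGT

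The Boc peak of Norm-Sen (chr16:44380472-44380654) lay 178.2 kb from the start of Boc, inside the neighbouring gene Spice1, with a fold of 5.93, a −log10 q of 4.02 and rank 373, near the end of its list. None of its bases were soft-masked, and no ATAC-seq peak overlapped it. With peaks of a −log10 q of at least 5 it was not kept.

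Motif letters were searched over the whole of each region on both strands. The GLI consensus TGGGTGGTC was found in 1 of 112 regions (0.893%, 0.0226 to 4.87), against 0.180% of the pool, and in 200 bp windows at the region centres again in 1, against 0.267%. The region lay 16339 bp from the nearest start of Smo, upstream, and was present in Norm-Pro alone, with a fold of 3.94 and a −log10 q of 3.23. It is printed with the match in capitals because it is the sole exact one in the 112 regions. Sequence outside the regions was not searched.
Smo upstream, Norm-Pro (chr6:29719065-29719164): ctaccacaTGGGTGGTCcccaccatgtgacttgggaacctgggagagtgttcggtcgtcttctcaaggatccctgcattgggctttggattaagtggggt

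With 1 mismatch allowed, the regions with a GLI match were 3 (2.68%, against 4.61% of the pool), the others being the Gli1 promoter region of Hyp-Pro and the Actr1a region in the window of Sufu. The hypoxia response element core, ACGTG or GCGTG, was found in 37 of 112 windows of 200 bp at the region centres (33.0%, 24.4 to 42.6), against 24.3% of the pool. By form, ACGTG was in 13 of these windows (11.6%), against 10.5% of the pool, and GCGTG in 29 (25.9%), against 16.3%. The share of ACGTG was thus near that of the pool, and the excess lay in GCGTG. Why the forms differed was not tested. Among regions in all 4 libraries either form was in 5 of 7 (71.4%), against 56.6% of the pool, and among those in 1 library in 26 of 91 (28.6%), against 21.4%. TGANTCA was found in 8 windows (7.14%), against 7.68% of the pool. The Tfcp2l1 consensus with 2 mismatches was found, over whole regions, in 1 of 112, the Sufu promoter (0.893%, 0.0226 to 4.87), against 0.494% of the pool. In the 200 bp windows it was found in 0, against 0.671% of the pool.

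Of 31 other genes of the pathway, 11 had a promoter peak in Hyp-Imm, 17 in Hyp-Pro, 19 in Norm-Sen and 18 in Norm-Pro. As shares these were 35.5% in Hyp-Imm, 54.8% in Hyp-Pro, 61.3% in Norm-Sen and 58.1% in Norm-Pro, against 35.5%, 49.5%, 53.0% and 54.8% of all protein-coding genes in the same libraries. In all 4 libraries 9 had one (29.0%, against 26.8%), and 5 had one in none. Those without any were the ligand genes Shh, Ihh and Dhh, with Scube3 and the neural target Nkx2-2. Of 8 genes for ligands and their release, 3 had a peak in all libraries, Hhat, which palmitoylates the ligand, Disp1, which exports it, and Scube2, which aids its release. Among receptors the co-receptor Cdon had a peak in all 4 libraries, with a fold of 6.06 and a −log10 q of 5.07 in Hyp-Imm, 8.96 and 14.8 in Hyp-Pro, 7.71 and 14.2 in Norm-Sen, and 7.62 and 12.3 in Norm-Pro.

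Of 12 signal transduction genes, 6 had a promoter peak in Hyp-Imm, 8 in Hyp-Pro, 10 in Norm-Sen and 10 in Norm-Pro, and 5 had one in all libraries. These 5 were the kinase genes Prkaca, Gsk3b and Csnk1a1, the ubiquitin ligase adaptor Spop and the ciliary motor Kif3a. Of 8 target genes, 1 had a promoter peak in Hyp-Imm and 3 in each other library, and none had one in all 4. Of all protein-coding genes the share was 35.5% in Hyp-Imm, 49.5% in Hyp-Pro, 53.0% in Norm-Sen and 54.8% in Norm-Pro. In all 4 libraries it was 26.8%. Both groups are small, and no difference between them was tested. A promoter peak was missing in 1 library alone for 5 genes, Scube1, Kif7, Grk2, Ift88 and Bcl2, and for each of them that library was Hyp-Imm. Of all protein-coding genes 12.1% lacked a promoter peak in Hyp-Imm alone, which was 71.8% of the 3698 genes that lacked one in a single library. Ift88, a gene of ciliary transport, had a −log10 q of 13.2 in Hyp-Pro, 12.9 in Norm-Sen and 10.9 in Norm-Pro. The lower depth of Hyp-Imm moves with these counts, and its part in them was not tested.

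**Figure D4:**
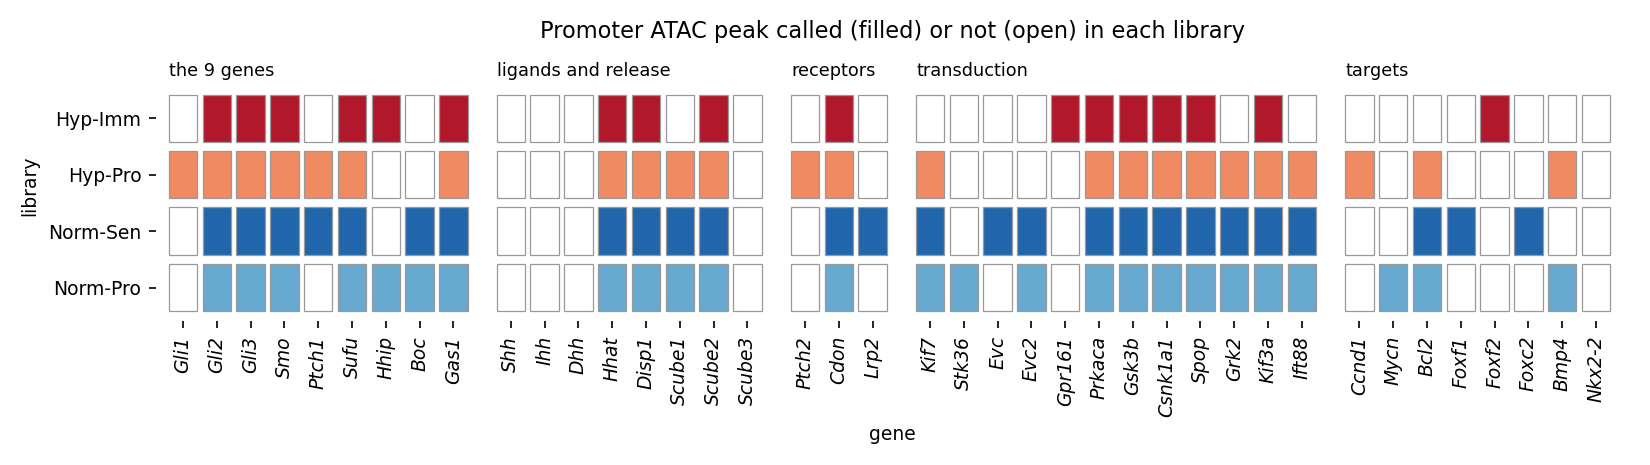
Promoter ATAC-seq peaks of the 9 genes and of 31 other genes of the Hedgehog pathway by library (rows) and gene (columns); filled squares mark a called peak and open squares none. The Hyp-Imm row has the fewest filled squares among the other pathway genes, 11 of 31, against 17 in Hyp-Pro, 19 in Norm-Sen and 18 in Norm-Pro.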

How the data were processed

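The files were 4 ATAC-seq and 2 ChIP-seq peak lists, 1 per library. The authors' ATAC-seq reads were mapped by Bowtie2 (GRCm38, mm10), mates lying over 2 kb apart were dropped, positions were shifted for Tn5, and MACS2 was run on every library by itself with an FDR limit of 0.05. The submitters' notes name Bowtie and MACS2 for ChIP-seq; no further setting was found, and the same build was assumed. The deposited fold is the ratio of pileup to local background, the deposited −log10 p and −log10 q come from MACS2, and the deposited score is a multiple of the −log10 q, left aside here. Peaks were ranked by −log10 q inside their own list. An uncalled peak means no signal above the threshold (lowest −log10 q 1.31 to 1.38), not closed chromatin.

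Peaks were joined to protein-coding genes of GENCODE vM21 by 1 bp of overlap with python 3.11.15, pandas 2.3.3 and numpy 2.4.6. Sequences came from RefSeq GRCm38.p6. Depth was derived from steps in the fold values of ATAC-seq peaks, and gave 0.445 background reads per position in Hyp-Imm, 0.956 in Hyp-Pro, 1.77 in Norm-Sen and 1.24 in Norm-Pro. The step chosen matched 24.9% of peaks in Hyp-Imm, 19.6% in Hyp-Pro, 22.4% in Norm-Sen and 30.9% in Norm-Pro. These depths are thus estimates and not read counts. ChIP-seq depth is unknown. Shares carry 95% exact Clopper-Pearson intervals (scipy 1.17.1) for counting error. Overlap and motif searches were tested on simulated data. The genes, lists and rules were chosen with earlier results of these data known. Text names all 9 genes, their strongest and shared regions, regions of 1 library with a −log10 q of at least 5, ChIP-seq peaks, and other pathway genes lacking a promoter peak in 1 library; further pathway genes, the ligands and those with a peak in all libraries, were named after their values were seen. Alternatives covered thresholds, list length, windows, repeats, motif settings and conditions by file names.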

Additional observations from a re-analysis of the deposited data

Results flagged for a closer look

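For 3 genes the number of regions, by the labels, moved in opposite directions with time in the 2 oxygen conditions. Each difference was 1 library against 1 library and was not tested. By the file names Norm-Sen would be a passage 1 library and Norm-Pro the late library of its pair. The 2 directions would then be the same for each of these genes. But Gli1, Gli3, Smo and Gas1, whose 2 directions were the same by the labels, would then move in opposite directions. Hyp-Imm also had the shortest list. Gli2 had 3 regions fewer in Hyp-Imm than in Hyp-Pro (difference -3) and 1 more in Norm-Sen than in Norm-Pro (difference 1). Sufu had 2 fewer in Hyp-Imm than in Hyp-Pro (difference -2) and 1 more in Norm-Sen than in Norm-Pro (difference 1). Boc had 1 more in Hyp-Imm than in Hyp-Pro (difference 1) and 2 fewer in Norm-Sen than in Norm-Pro (difference -2).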

How the results depend on the processing

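Of 131 recomputed counts, 101 stayed within 1.5 times the reported value. With peaks of a −log10 q of at least 5, peaks near the genes fell to 5 in Hyp-Imm, 16 in Hyp-Pro, 9 in Norm-Sen and 9 in Norm-Pro. Genes with a promoter peak then were 2 in Hyp-Imm, 3 in Norm-Sen, 4 in Norm-Pro and 1 in all 4 libraries. Unshared regions became 2 in Hyp-Imm and 6 in Norm-Sen for that pair, 1 in Hyp-Imm and 12 in Hyp-Pro, 9 in Hyp-Pro and 1 in Norm-Pro, and 4 in Norm-Sen and 3 in Norm-Pro. With the same number of peaks per library, peaks near the genes were 23 in Norm-Sen and 27 in Norm-Pro. Unshared regions then were 15 in Norm-Sen against Hyp-Imm, 16 in Norm-Pro against Hyp-Pro, and 13 in Norm-Sen and 16 in Norm-Pro for that pair. These settings keep fewer peaks by construction. The gene record alone left 22 peaks in Hyp-Pro, and windows of 50 kb gave 52 regions in Norm-Sen and not Hyp-Imm. Grouping by file name gave 35 regions in Hyp-Imm and not Norm-Sen; the cause was not tested. ChIP-seq peaks fell to 0 in Hyp-Imm without peaks on repeats. In Norm-Sen they were 0 within 100 kb of a start, 2 within 500 kb and 0 at a −log10 q of at least 5. The GLI consensus with 1 mismatch was in 3 regions. Starts of protein-coding transcripts alone, chosen after seeing the data, gave 6 genes with a promoter peak in Hyp-Pro.

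No paired analysis was possible because each condition had 1 library and no result came from a test. The low background estimated for Hyp-Imm, 25.2% of that of the deepest library, limits what its list can show, and its part in the peaks missing there was not tested.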
